A study of Mus musculus with 5 samples.

Results

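Open chromatin was mapped in 5 stages of mouse blood cell development. The 741 regions described here had a site in an early stage and again in macrophages. By windows of 500 bp they had none in the stages in between, although the wider deposited intervals of those stages overlapped 129 of them. The starting point was 1 ES (embryonic stem) cell line, strain 129, with a GFP reporter in its Brachyury gene, from which all 5 populations were grown in culture and then sorted. Mesoderm (MES) was sorted as Bry.GFP+ and FLK1-, and hemangioblasts (HB) as Bry.GFP+ and FLK1+, FLK1 being the VEGF receptor encoded by Kdr. Hemogenic endothelium (HE) was sorted as Tie2+, cKit+ and CD41-, hematopoietic progenitors (HP) as CD41+, and macrophages (MAC) as CD11b+ cells grown from the CD41+ cells. Each stage had 1 list of DNase I hypersensitive sites (DHS), the MAC list being named for 2 replicates together, and no list gave read counts or scores, so the depth behind a site is unknown and no comparison below could be tested against replicates.

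The regions were chosen by the lists themselves. Each site was replaced by the 500 bp centred on it. Such windows, whatever their stage, were chained into a merged region when they shared at least 25% of their length, and a region was kept if it held a window of MAC and a window of MES or HB but none of HE or HP. Of 68846 merged regions, 741 met this rule, which is 1.08% of all regions, 1.98% of the 37444 regions open in MAC and 6.06% of the 12222 regions open both early and in MAC. They are set below beside 9963 regions open early only (MES, HB or both), 21375 open in MAC only, and 11481 open early, in HE or HP, and in MAC. Promoter sites of the sort markers were set beside the labels. Within 1 kb of its transcription start site (TSS), the Brachyury gene T had a site in MES and HB only, Tek (Tie2) in HE only, Itga2b (CD41) in HE and HP, and Itgam (CD11b) in MAC only. Kdr had a promoter site in all 5 lists and Kit in all but MAC, so these genes do not set the stages apart, and Itga2b had its HE site although HE was sorted as CD41-.

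DNase I cuts DNA that is not wrapped in nucleosomes, so a hypersensitive site marks a promoter, an enhancer or another stretch where proteins sit on the DNA. Enhancers are mostly opened by factors that belong to a cell type. In macrophages PU.1 and C/EBP factors hold such sites together with AP-1, while TEAD, GATA, T-box and TCF factors act in mesoderm and its derivatives. CTCF is a zinc finger protein of nearly all cell types that binds a long motif, marks the borders of chromatin loops and together with cohesin holds loops in place.

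To show the regions as DNA, 300 bases around the centre of 9 of them follow, read from GRCm38 (mm10) on the plus strand. They were taken from the 499 members that lie over 2 kb from a TSS, that no deposited HE or HP interval overlaps and whose central 300 bases hold no annotated exon, 1 chromosome being left out of the choice: for each of the 3 possible sets of stages, the 2 members whose narrowest site is widest and the 1 member with most different motifs. Capitals mark matches on either strand to the consensus of 19 motifs. The mesodermal and early ones were TEAD (CATTCCA or the same with a final T), the blood factors of the GATA family (AGATAA), the T-box of Brachyury (AGGTGTGA), TCF7L of the Wnt pathway (ATCAAAG), SOX factors (CATTGTT) and the POU octamer of pluripotent cells (ATGCAAAT). Those of blood and macrophages were RUNX (TGTGGTT or the same with a final C), PU.1 (GAGGAAG), ETS factors at large (CCGGAAGT or else CAGGAAGT), C/EBP factors (TTGCNNAA, written CEBP below), AP-1 (TGANTCA, written AP1 below), the interferon regulatory factors (IRF, GAAANNGAA) and NFkB (GGGANTTCC). More general ones were the cAMP response element (CRE, TGACGTCA), KLF factors (GGGTGTGG or else GGGCGTGG), the E-box that many bHLH factors bind (CAGCTG), the E-box of TFE factors (TCACGTG), forkhead factors (FOX, TGTTTAC) and the core of the CTCF motif. Some spellings share letters, as an E-box and TEAD do in the sequence near Fos, and a match describes the letters only.

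The first 3 were open in MES and MAC. The region near Cryaa, a lens crystallin gene, lies in intergenic DNA at chr17:31753540-31753839 and holds an IRF match, an octamer and a pair of E-boxes. The region in an intron of Kcnn3, a potassium channel gene, lies at chr3:89578651-89578950 and holds a SOX match. The region near Twist2, a bHLH repressor of mesenchymal cells, lies in intergenic DNA at chr1:91874759-91875058 and holds RUNX, CTCF, CEBP, AP1 and GATA matches.
Cryaa: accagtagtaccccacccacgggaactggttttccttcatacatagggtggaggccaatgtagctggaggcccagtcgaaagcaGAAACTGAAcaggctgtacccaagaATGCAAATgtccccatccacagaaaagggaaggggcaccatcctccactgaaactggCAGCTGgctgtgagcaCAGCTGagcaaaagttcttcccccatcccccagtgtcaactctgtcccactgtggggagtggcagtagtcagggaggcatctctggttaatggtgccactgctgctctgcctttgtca
Kcnn3: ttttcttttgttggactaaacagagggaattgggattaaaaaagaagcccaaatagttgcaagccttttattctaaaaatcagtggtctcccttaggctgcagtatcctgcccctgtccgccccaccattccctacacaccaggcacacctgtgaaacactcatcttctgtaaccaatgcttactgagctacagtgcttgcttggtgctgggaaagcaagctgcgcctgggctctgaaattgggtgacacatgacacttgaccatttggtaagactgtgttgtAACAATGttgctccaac
Twist2: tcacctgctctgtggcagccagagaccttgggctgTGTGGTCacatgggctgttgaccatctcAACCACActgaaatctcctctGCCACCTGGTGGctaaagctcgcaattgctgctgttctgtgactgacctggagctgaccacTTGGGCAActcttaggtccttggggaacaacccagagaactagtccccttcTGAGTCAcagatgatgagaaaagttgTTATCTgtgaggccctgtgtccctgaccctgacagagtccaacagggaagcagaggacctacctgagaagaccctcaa

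The next 3 were open in HB and MAC. The region in an intron of Rassf2, a Ras association gene, lies at chr2:132006711-132007010 and holds none of the spellings within the bases shown. Its HB and MAC sites were 1000 bp wide each, and TEAD, RUNX and TCF7L matches lay in its central 500 bp but not wholly within those bases. The region upstream of the dynein gene Dnah14 lies in intergenic DNA at chr1:181552881-181553180 and holds a CEBP and an AP1 match. The region 59.2 kb downstream of the start of Fos, which encodes an AP-1 subunit, lies in intergenic DNA at chr12:85532903-85533202 and holds PU.1, GATA, NFkB, E-box and TEAD matches.
Rassf2: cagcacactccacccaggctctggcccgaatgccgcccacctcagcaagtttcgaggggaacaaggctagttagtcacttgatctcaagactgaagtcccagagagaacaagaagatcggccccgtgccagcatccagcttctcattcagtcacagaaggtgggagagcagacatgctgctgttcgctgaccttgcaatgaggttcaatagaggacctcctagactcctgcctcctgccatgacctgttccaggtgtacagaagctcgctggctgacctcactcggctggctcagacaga
Dnah14: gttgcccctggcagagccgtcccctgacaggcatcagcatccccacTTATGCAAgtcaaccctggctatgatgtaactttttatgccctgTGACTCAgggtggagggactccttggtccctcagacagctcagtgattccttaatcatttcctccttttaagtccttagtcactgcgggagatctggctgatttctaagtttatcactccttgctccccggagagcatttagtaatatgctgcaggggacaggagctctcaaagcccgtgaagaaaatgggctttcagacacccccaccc
Fos: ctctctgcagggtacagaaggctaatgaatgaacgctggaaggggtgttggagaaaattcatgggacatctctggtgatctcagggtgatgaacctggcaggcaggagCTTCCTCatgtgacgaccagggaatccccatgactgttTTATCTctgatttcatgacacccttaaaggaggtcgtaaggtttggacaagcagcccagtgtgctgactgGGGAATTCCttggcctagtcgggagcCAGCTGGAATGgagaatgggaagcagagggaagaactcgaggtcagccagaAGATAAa

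The last 3 were open in MES, HB and MAC. The region nearest to Tcp10c lies in intergenic DNA at chr17:13552165-13552464 and is a simple tandem repeat with no match within the bases shown. Its sites were among the widest, at 1300 bp in MES, 1200 bp in HB and 1000 bp in MAC. The region in an intron of Fam186b lies at chr15:99284680-99284979 and holds a GATA and a KLF match. The region upstream of Sp1, which encodes a broadly active zinc finger activator, lies in intergenic DNA at chr15:102393698-102393997 and holds ETS, IRF, KLF, PU.1, E-box and AP1 matches.
Tcp10c: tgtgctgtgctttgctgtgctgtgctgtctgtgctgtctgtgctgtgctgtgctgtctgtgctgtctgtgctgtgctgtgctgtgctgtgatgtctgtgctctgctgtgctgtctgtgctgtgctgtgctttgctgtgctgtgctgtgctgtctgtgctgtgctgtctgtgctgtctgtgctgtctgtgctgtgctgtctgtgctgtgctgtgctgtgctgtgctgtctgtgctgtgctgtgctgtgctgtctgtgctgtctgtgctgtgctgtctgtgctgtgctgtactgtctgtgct
Fam186b: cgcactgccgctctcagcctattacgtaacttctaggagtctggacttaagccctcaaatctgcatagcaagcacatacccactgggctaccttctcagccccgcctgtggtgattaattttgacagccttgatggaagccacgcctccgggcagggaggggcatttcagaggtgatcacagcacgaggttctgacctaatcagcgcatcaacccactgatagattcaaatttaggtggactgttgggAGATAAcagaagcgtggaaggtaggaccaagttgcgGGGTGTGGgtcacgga
Sp1: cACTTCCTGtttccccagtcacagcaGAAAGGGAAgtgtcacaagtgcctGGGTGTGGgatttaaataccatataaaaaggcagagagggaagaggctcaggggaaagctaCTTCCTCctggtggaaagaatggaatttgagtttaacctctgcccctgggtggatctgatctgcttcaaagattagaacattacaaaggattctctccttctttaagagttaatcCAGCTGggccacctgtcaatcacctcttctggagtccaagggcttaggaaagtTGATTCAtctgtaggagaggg

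The motif that set the members apart from the other groups by the widest margin was that of CTCF, so 6 members with its core are shown around that core, in capitals, with 15 bases on each side. They were chosen after the shares below were known, as the 2 members of each set of stages with the widest narrowest site among those with a core and no HE or HP interval. Each sequence is read along the strand of the match. Those open in MES and MAC lie near 2300002M23Rik at chr17:35578356-35578397 (plus strand) and near Mrto4, a ribosome maturation gene, at chr4:139337154-139337195 (plus strand), both in intergenic DNA. Those open in HB and MAC lie in an intron of Pbld1 at chr10:63066158-63066199 (minus strand) and near Atp6v1b2, which encodes a proton pump subunit, in intergenic DNA at chr8:69023577-69023618 (minus strand). Those open in MES, HB and MAC lie near Timm8a2, a mitochondrial import gene, in intergenic DNA at chr14:122060876-122060917 (minus strand) and in an intron of Igf2bp2, which encodes an RNA-binding protein, at chr16:22108208-22108249 (plus strand).
2300002M23Rik: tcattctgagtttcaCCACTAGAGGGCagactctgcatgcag
Mrto4: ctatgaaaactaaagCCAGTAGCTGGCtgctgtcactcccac
Pbld1: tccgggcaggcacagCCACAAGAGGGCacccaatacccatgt
Atp6v1b2: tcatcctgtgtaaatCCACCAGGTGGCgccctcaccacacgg
Timm8a2: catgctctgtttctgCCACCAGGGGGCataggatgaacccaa
Igf2bp2: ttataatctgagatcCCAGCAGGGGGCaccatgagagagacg

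Among the 741 members, 303 were open in MES, HB and MAC, 240 in MES and MAC but not HB, and 198 in HB and MAC but not MES. Early regions that were open in neither HE nor HP were seldom in the MAC list. Of 10704 such regions 741 were, or 6.92% (95% interval 6.46 to 7.42, Wilson's method, which covers counting error only, as for every interval below). Where an early region was also open in HE or HP, 11481 of 18082 were open in MAC, or 63.5% (62.8 to 64.2). Over 2 kb from a TSS the shares were 6.82% (617 of 9044, 6.32 to 7.36) and 41.4% (2978 of 7198, 40.2 to 42.5). By early stage, 8.53% (7.65 to 9.49) of the regions open in both MES and HB, 7.84% (6.94 to 8.84) of those open in MES alone and 4.84% (4.23 to 5.54) of those open in HB alone were in the MAC list. The interval for HB alone did not overlap the other two. These shares describe the rule that chose the members.

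The rule itself made the early and the MAC site lie close together, because windows had to share at least 25% of their length. The distances and overlaps given here are therefore limited by it. The early and MAC middles were a median of 66 bp apart (quartiles 29 and 141 bp, highest 371 bp). Where MES and HB both had a site, the nearer one was taken. In 739 of 741 members the deposited early and MAC intervals themselves overlapped. In 667 members the early and MAC windows shared at least 250 bp. Close to the threshold of the rule, 25 members had windows that shared less than 35% of their length, and just outside it lay 48 pairs of neighbouring regions, 1 open early only and 1 in MAC only, that overlapped by less than the required 25%, 20 of them by at least 15%. On the side of the stages left out, 36 members touched a window of HE and 4 a window of HP by less than that amount.

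The sites were narrow for their lists. Among members the median site was 500 bp wide in MES, 600 bp in HB and 400 bp in MAC, where the whole lists had medians of 800, 900 and 600 bp. A width below the median of its own list was found for 84.5% of the 543 MES sites, 81.0% of the 501 HB sites and 75.8% of the 741 MAC sites. Regions open early only were nearly as narrow, with 500 bp in MES and 700 bp in HB, and regions open in MAC only had a median of 500 bp. Regions also open in HE or HP were the widest of these groups, with medians of 1000 bp in MES, 1200 bp in HB and 800 bp in MAC. These groups differ in their share of promoters. Over 2 kb from a TSS the medians were 400 bp in MES, 600 bp in HB and 400 bp in MAC for members, and 700, 900 and 600 bp for regions also open in HE or HP. At that distance 89.1% of the members' MES sites, 85.1% of their HB sites and 77.0% of their MAC sites were below the list median, as were 74.0%, 64.1% and 58.4% of all sites of those lists. In sorted bulk cells a site open in few of them and a weak site in all cannot be told apart.

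Absence from HE and HP depended on how wide a site was taken to be. HE sites were the widest of the 5 lists, with a median of 1200 bp, so that a deposited HE interval could reach a member while its window did not. A deposited HE interval overlapped 126 members and a deposited HP interval 26, by a median of 524 and 527 bp, and 129 members (17.4%) were overlapped by either. These were mostly promoters. Of the 124 members within 2 kb of a TSS, 79 were overlapped (63.7%, 55.0 to 71.6), and of the 617 members farther away only 50 were (8.10%, 6.20 to 10.5). The corresponding shares were 30.1% and 5.00% for regions open early only and 27.0% and 2.62% for regions open in MAC only. At 580 members no HE or HP interval lay within 1 kb.

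For the members over 2 kb from a TSS the nearest HE site was a median of 8.83 kb away (quartiles 2.97 and 21.8 kb) and the nearest HP site 16.5 kb (5.76 and 42.6 kb). Regions open early only were farther from both, with medians of 12.3 and 29.4 kb, as were regions open in MAC only, with 13.2 and 27.3 kb. The members lay closer to sites that were open in the intermediate stages than either of the groups they were drawn between. They also lay closer to a TSS, at a median of 19.7 kb against 29.8 kb for early only and 28.4 kb for MAC only regions. The part of TSS distance in these shorter gaps was not tested.

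**Figure D1:**
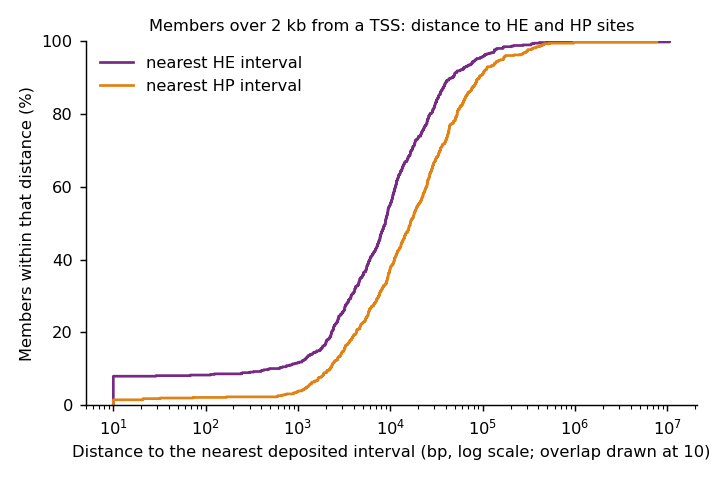
Share of the 617 members over 2 kb from a TSS (y axis, %) that lie within a given distance (x axis, bp, log scale) of the nearest deposited HE interval (purple) or HP interval (orange). The curves start at 7.94% and 1.46%, the members that an interval overlaps, and the HP curve runs to the right of the HE curve, with medians of 16.5 and 8.83 kb.

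In position the members were not promoters for the most part. Within 2 kb of a protein-coding TSS lay 124 of 741 (16.7%, 14.2 to 19.6), against 24.0% of all merged regions, 15.4% of regions open early only, 6.51% of those open in MAC only and 74.1% of those also open in HE or HP. Between 2 and 20 kb lay 42.2% (38.7 to 45.8), more than in any of the other 3 groups, whose highest share was 36.8%, and beyond 20 kb 41.0% (37.5 to 44.6). The centre of 413 members was intergenic, of 264 in an intron, of 41 in an exon outside its coding part and of 23 in a coding exon. Leaving out members that a deposited HE or HP interval overlaps lowered the promoter share to 7.35% (45 of 612). The same filter left 1073 of 9079 early only and 1015 of 20476 MAC only regions at promoters. Under it the members' share lay below that of early only regions and still above that of MAC only regions.

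**Figure D2:**
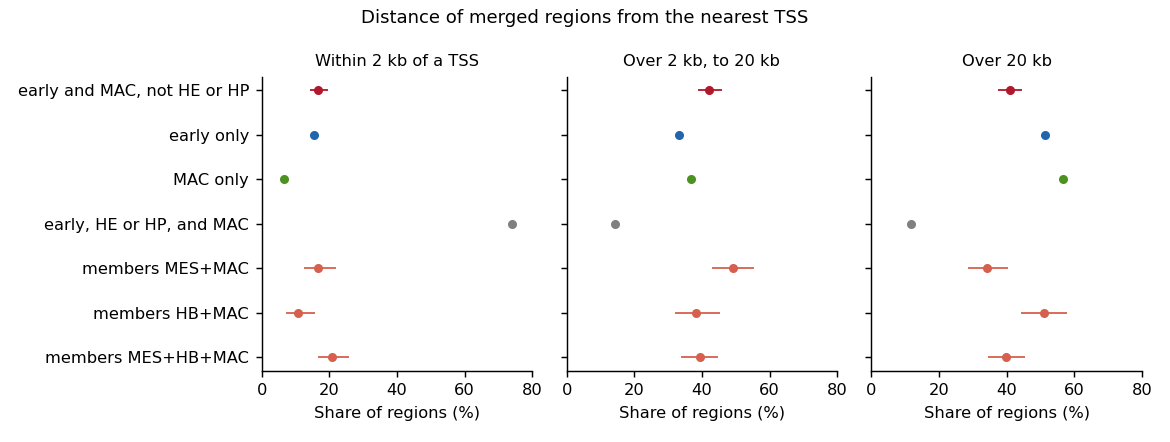
Share of regions (x axes, %) within 2 kb of a TSS, over 2 and up to 20 kb, and over 20 kb away, for the members, the 3 other groups and the members by set of stages; bars are 95% Wilson intervals and are shorter than the points where not seen. The members had 16.7%, 42.2% and 41.0%, and regions also open in HE or HP stood apart with 74.1% at promoters.

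CpG-rich DNA, defined by a GC share of at least 0.5 and an observed to expected CpG ratio of at least 0.6 in the central 500 bp, was found in 78 members (10.5%, 8.52 to 12.9), against 18.2% of all regions. The share was 11.0% in regions open early only, 0.884% in those open in MAC only and 69.8% in those also open in HE or HP. Of the 78 CpG-rich members 61 were at promoters, and with no HE or HP interval allowed to overlap, 27 of 612 members (4.41%) were CpG-rich. Members open in MES, HB and MAC were CpG-rich in 17.8% (13.9 to 22.5), those of MES and MAC in 6.67% (4.14 to 10.6) and those of HB and MAC in 4.04% (2.06 to 7.77). Over 2 kb from a TSS the median GC content was 50.0% in members, between 50.8% in regions open early only and 46.4% in those open in MAC only.

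Of the members over 2 kb from a TSS 186 of 617 held the core of the CTCF motif (30.1%, 26.7 to 33.9), a pattern of 12 letters of which 8 are fixed. The same core was in 7.74% of all 52345 regions at that distance, in 11.5% (10.9 to 12.2) of those open early only, in 3.86% (3.60 to 4.13) of those open in MAC only and in 21.9% (20.5 to 23.4) of those also open in HE or HP. The interval of the members overlapped none of the others, but single sets of stages within the last group held the core about as often, as given below. The same letters written backwards, a control for base composition, were in 0.486% of the members. The median GC content of the members lay between those of the early and the MAC group, and the part of GC content in these shares was not tested. The share was 36.5% (30.1 to 43.4) in members of MES and MAC, 28.3% (23.0 to 34.3) in those of MES, HB and MAC and 25.4% (19.6 to 32.3) in those of HB and MAC, and these 3 intervals overlapped. Without any overlapping HE or HP interval it was 30.7% (174 of 567). When each of the 5 lists, HE and HP included, was limited to sites no narrower than its median, the share was 18.2% of 159 members (13.0 to 25.0), against 8.11% of early only, 3.62% of MAC only and 10.2% of regions also open in HE or HP, and with each list cut to its widest 17734 sites it was 14.2% of 162 members (9.65 to 20.4), where the last group had 13.8%. At this last limit early only regions had 11.6% (10.8 to 12.4), and the interval of the members overlapped both. The first limit removes HE and HP sites and the second HE sites, so both can admit regions that were not members before, and the part of the members' own widths in the lower shares was not tested.

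Read the other way, an early region without HE and HP was in the MAC list more often if it held a CTCF core. This was so for 186 of 1158 regions with a core (16.1%, 14.1 to 18.3) and 431 of 7886 without (5.47%, 4.99 to 5.99). The shares were 15.5% and 6.06% for regions open early in MES alone, 13.7% and 4.02% for HB alone, and 19.0% and 6.87% for both, and in no case did the intervals overlap. Among early regions that were open in HE or HP as well, 52.2% (49.4 to 55.0) with a core and 39.1% (37.9 to 40.3) without were in the MAC list. No other of the 19 motifs was tied to a share above 10.3%, which was that of NFkB (25 of 242, 7.10 to 14.8).

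Among all 31 possible sets of stages, ordered by the share with a core, the members' sets ranked 3rd, 7th and 10th. Other sets with an early stage and MAC lay between 53.6% and 11.5%, the lowest being HB with HE, HP and MAC, below MES alone at 16.9%. Several of these held the core about as often as the members. MES with HB, HP and MAC had 33.3% (26.4 to 41.1) and HB with HP and MAC 31.9% (20.4 to 46.2). MES with HE, HP and MAC had 29.0% (19.2 to 41.3) and MES with HB, HE and MAC 27.5% (23.6 to 31.7). A high share was thus not particular to regions missing from HE and HP. Only MES with HP and MAC (53.6% of 28 regions) and MES with HP (41.2% of 68) ranked above the members of MES and MAC, both on few regions and with intervals that overlapped that of the members. Regions open in all 5 stages held the core in 19.7% of 1596 and regions open in HE alone in 4.56% of 9884. Of the single lists, MES had the highest share at 17.6%, followed by HB at 13.5%, HP at 12.2%, HE at 8.51% and MAC at 6.87%. HE and MAC, the lists with the lowest shares, were also those with most sites, 33305 and 37456.

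**Figure D3:**
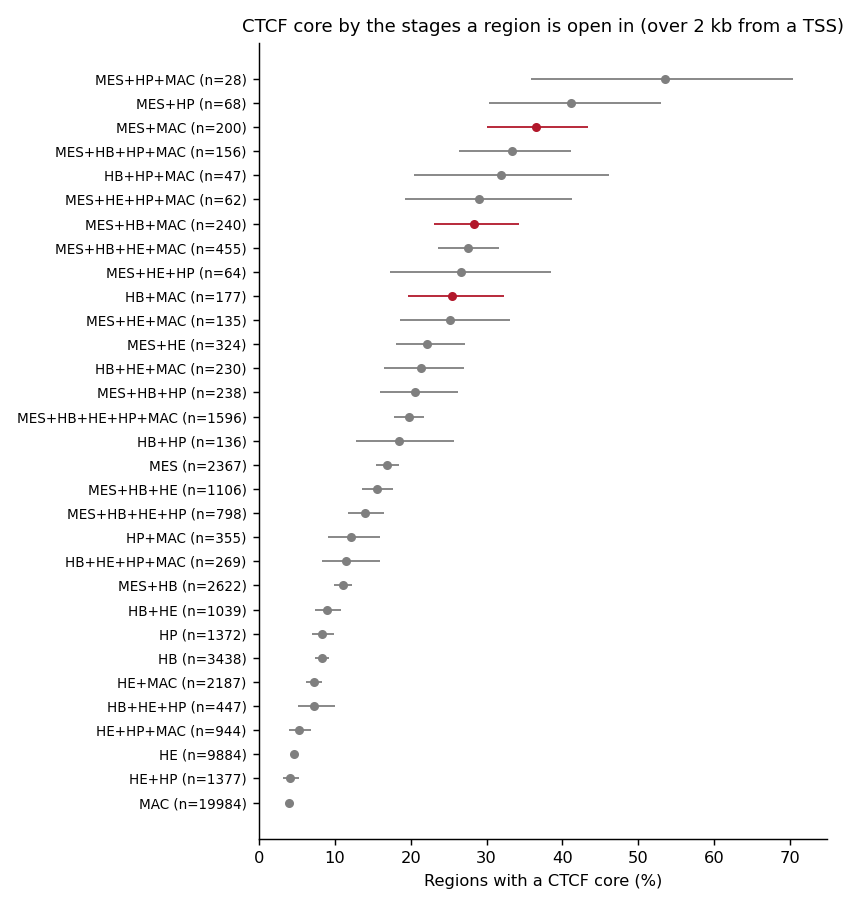
Share of regions over 2 kb from a TSS that hold a CTCF core (x axis, %, with 95% Wilson intervals) for each of the 31 sets of stages (y axis, with the number of regions), sorted by share; the members' 3 sets are red. They rank 3rd, 7th and 10th, at 36.5%, 28.3% and 25.4%, while regions open in MAC alone come last at 3.86%.

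The core lay near the middle of the members. Of the 186 members with a core it was within 50 bp of the centre in 116 (62.4%) and within 100 bp in 162 (87.1%), with a median distance of 40.0 bp (quartiles 17.0 and 69.8 bp). The median was 61.0 bp in regions open early only, 79.0 bp in those open in MAC only and 65.0 bp in those also open in HE or HP. The early and MAC middles were also closer in members with a core, a median of 50 bp apart against 74 bp in those without. Their sites were narrower, with medians of 400 bp in MES and 300 bp in MAC against 500 and 400 bp, while HB sites had a median of 600 bp in both. A deposited HE or HP interval overlapped 12 of 186 members with a core (6.45%) and 38 of 431 without (8.82%).

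**Figure D4:**
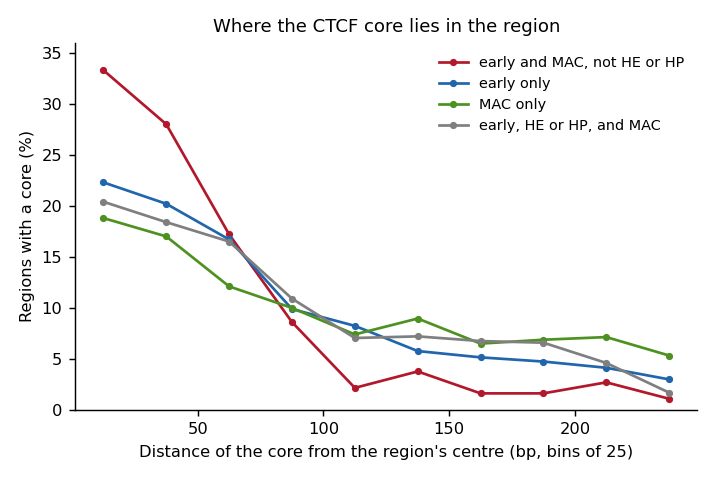
Distance of the nearest CTCF core from the centre of its region (x axis, bp, in bins of 25) against the share of regions with a core (y axis, %) for the members (red), regions open early only (blue), in MAC only (green) and also in HE or HP (grey). Of the members 33.3% have the core within 25 bp of the centre, against 22.3%, 18.8% and 20.4% in the other groups.

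The motifs of PU.1, CEBP and AP1 were more frequent in the members than in regions open early only, and less frequent than in regions open in MAC only. PU.1, the factor that macrophages require, matched 25.9% of members (22.6 to 29.5), against 28.6% of all regions, 19.2% of early only and 35.3% of MAC only. CEBP matched 24.5% (21.2 to 28.0), against 22.8%, 17.3% and 30.4% in the same order. AP1 matched 19.6% (16.7 to 22.9), against 27.2%, 15.1% and 34.1%. For these 3 motifs the interval of the members overlapped neither that of early only nor that of MAC only regions. Regions also open in HE or HP had PU.1 in 24.2% (22.7 to 25.8) and AP1 in 20.5% (19.1 to 22.0), overlapping the members, and CEBP in 17.5% (16.1 to 18.9), below them. RUNX matched 17.5% (14.7 to 20.7), as in early only regions (17.6%) and below MAC only regions (25.5%) and all regions (22.5%). The backward letters, as a control, were in 15.2% of members for PU.1, 4.86% for CEBP, 12.6% for AP1 and 19.6% for RUNX, the last being above the share of RUNX itself. Of the other blood and macrophage motifs, ETS matched 7.46% (5.64 to 9.80), against 10.9% of all regions, 5.62% of early only and 10.4% of MAC only. IRF matched 15.7% (13.1 to 18.8), against 15.9%, 11.9% and 19.2% in the same order, with backward letters in 18.5% of members. NFkB differed from these in lying above MAC only regions, with 4.05% (2.76 to 5.91) against 2.15% (1.96 to 2.36). It matched 2.67% of all regions, 2.58% (2.26 to 2.94) of early only and 2.82% (2.28 to 3.48) of regions also open in HE or HP. The backward letters of NFkB were in 3.89% of members.

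Of the mesodermal and early motifs, TEAD, GATA and TCF7L were less frequent in the members than in regions open early only. TEAD, the partner of YAP in the Hippo pathway, matched 19.9% of members (17.0 to 23.3), against 21.6% of all regions, 24.9% of early only and 16.9% of MAC only. GATA, bound by GATA2 and GATA1 in blood, matched 21.6% (18.5 to 25.0), against 27.3% of all regions, 30.0% of early only and 21.0% of MAC only. TCF7L, of the Wnt pathway, matched 7.13% (5.35 to 9.44), against 7.78% of all regions, 12.8% of early only and 6.44% of MAC only. The T-box spelling, which Brachyury and Eomes bind, matched 4.54% (3.16 to 6.48), against 2.54% of all regions, 6.08% of early only and 1.69% of MAC only. SOX matched 4.54% (3.16 to 6.48), against 8.39% of all regions, 5.80% (5.32 to 6.32) of early only and 7.73% (7.36 to 8.10) of MAC only, so that the members lay below MAC only regions. The POU octamer matched 3.57% (2.37 to 5.34), against 2.68%, 4.31% and 2.58% in the same order. Members lay below early only regions for TEAD, GATA and TCF7L with intervals apart, and above MAC only regions for T-box (1.52 to 1.88). For TEAD and GATA the intervals of members and MAC only regions overlapped, and for the octamer the interval of the members overlapped those of both other groups, which lay apart from each other (3.89 to 4.76 and 2.37 to 2.81). Read backwards, the letters matched 7.78% of members for TEAD, 18.5% for GATA, 6.65% for TCF7L, 2.92% for T-box, 4.05% for SOX and none for the octamer. The GATA, TCF7L and SOX shares thus lay near those of their backward letters.

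**Figure D5:**
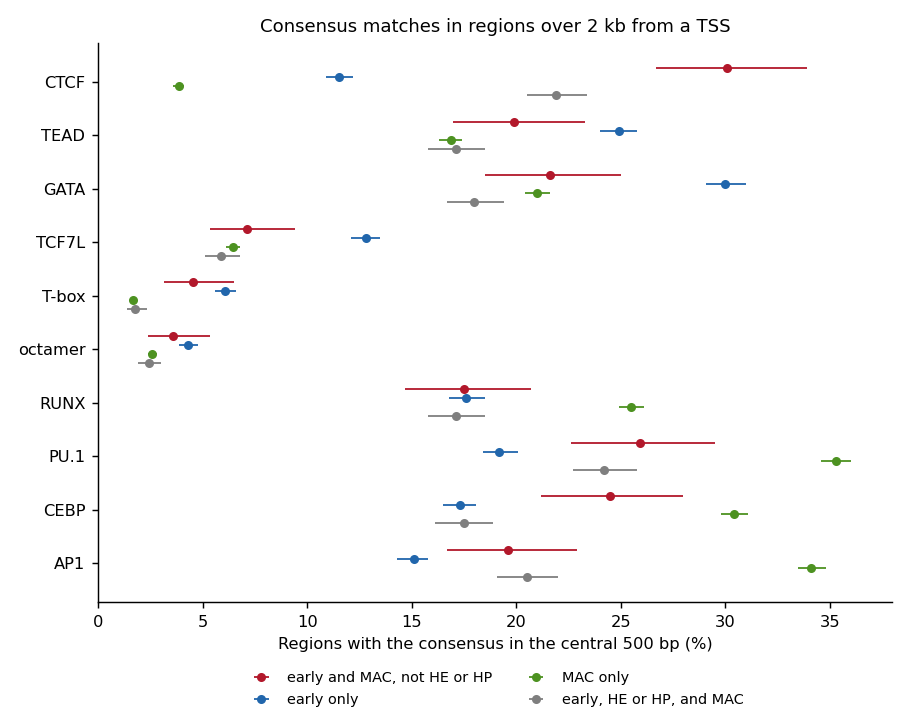
Share of regions over 2 kb from a TSS with each consensus in the central 500 bp (x axis, %, points with 95% Wilson intervals) for 10 motifs (y axis) in the members (red), regions open early only (blue), in MAC only (green) and also in HE or HP (grey). Of these 10 motifs only CTCF has the members above all 3 other groups, at 30.1%. For PU.1, CEBP and AP1 the members lie between early only and MAC only.

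Leaving out every region with a CTCF core kept this order for PU.1, CEBP and AP1. In the 431 members without a core PU.1 matched 28.5% (24.5 to 33.0), against 19.5% of early only and 35.6% of MAC only regions without a core. CEBP matched 25.3% (21.4 to 29.6), against 17.5% and 30.6%, and AP1 21.8% (18.2 to 25.9), against 15.7% and 34.4%. In the 186 members with a core PU.1 matched 19.9% (14.8 to 26.2) and AP1 14.5% (10.2 to 20.3), with intervals that overlapped those of the members without a core.

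Among the members the GATA spelling was most frequent in those open in HB without MES. It was in 33.9% (27.3 to 41.1) of the 177 members of HB and MAC, 18.8% (14.3 to 24.2) of the 240 of MES, HB and MAC and 14.0% (9.87 to 19.5) of the 200 of MES and MAC, and the last 2 intervals overlapped. The backward letters were in 22.0% of the members of HB and MAC. Regions open only in HB held it in 41.8% of 3438 and regions open only in MES in 18.1% of 2367. PU.1 was in 28.2%, 25.0% and 25.0% of the same 3 sets of members, with intervals that overlapped.

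The members were spread over the chromosomes with a median of 1138 kb between neighbours, and 16 neighbouring pairs lay within 10 kb. Chromosome 8 held 82 of them (11.1%, 9.01 to 13.5), more than any other chromosome, against 7.34% of all merged regions, 8.31% of regions open early only and 6.69% of those open in MAC only. In the members of HB and MAC the share was 17.2% (34 of 198, 12.6 to 23.0), in those of MES and MAC 10.4% and in those of MES, HB and MAC 7.59%. Of the 910 early regions on chromosome 8 without HE and HP 9.01% were in the MAC list, an interval of 7.32 to 11.0 that overlapped the one over all chromosomes (6.46 to 7.42), and the share on chromosome 17 was 8.95%. For early regions open in HB alone it was 9.97% on chromosome 8 (34 of 341, 7.22 to 13.6), against 4.84% (4.23 to 5.54) over all chromosomes, with intervals apart. For MES alone it was 8.33% and for both 8.55% on chromosome 8, with intervals that overlapped those over all chromosomes. Only chromosome 8, the one with most members, is split by stage here, and the values over all chromosomes include it.

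The 741 members had 703 different nearest protein-coding genes, 3.35% of the 21000 annotated, and 668 of these had a single member. Nearness does not show which gene a region acts on. The most members for 1 gene were 3, at Tle3, Rab20 and St6galnac1. At Tle3, which encodes a Groucho corepressor, they lay 19.7, 63.0 and 268 kb downstream of the start, and only the middle one was open in MES as well as HB and MAC, with widths of 900, 1300 and 800 bp. At Rab20, a GTPase of endosomes and phagosomes, they lay 1.73 and 47.7 kb downstream and 7.79 kb upstream of the start, and the one at the promoter was overlapped by a deposited HE interval. At St6galnac1, a sialyltransferase gene, they lay 16.8, 30.2 and 32.8 kb downstream.

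Nod2, Trappc3, Adssl1, Tcp10c and Dnah14 followed with 2 members each. Nod2 encodes a sensor of bacterial cell walls. Its members lay 8.65 and 15.2 kb downstream of the start in introns, with MAC sites of 1200 and 900 bp, wider than the MES site of 300 bp and the HB sites of 500 and 800 bp, and the nearest HE interval was 5052 bp from the first. Both members at Trappc3, a vesicle transport gene, were overlapped by an HE interval, and the one at its promoter by an HP interval as well (611 bp). Adssl1, of purine nucleotide synthesis, had a member 14.3 kb upstream and another 0.0840 kb from its start, the latter open in MES (600 bp), HB (700 bp) and MAC (600 bp) with the nearest HE interval 2840 bp away. Its promoter thus had a site in MES, HB and MAC and none in HE or HP. In all, 50 of the 21000 genes had a promoter site in MES or HB and in MAC and none in HE or HP.

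Of 305 genes in 14 lists chosen for early mesoderm, blood, macrophages and signalling, 25 (8.20%) were nearest to a member, against 3.35% of all genes. By list this was 4 of 27 genes for integrins and focal adhesion (Flna, Itga5, Itga6, Itgb1), 3 of 20 for myeloid factors (Bhlhe40, Irf8, Klf4), 3 of 22 for inflammation (Bcl3, Cxcl2, Nfkbia), 3 of 25 for the Wnt pathway (Axin2, Lrp6, Wnt5b) and 3 of 28 for BMP and TGF-beta (Lefty2, Smad3, Smad6). It was 2 of 23 for primitive streak factors (Mesp1, Mesp2), 2 of 24 for blood and endothelial factors (Hhex, Runx3), and 1 gene each for macrophage receptors (Mertk of 22), AP-1 (Fos of 13), Hippo (Ccn2 of 22) and pluripotency (Nanog of 17). None of the 21 genes of lipid handling and lysosome or the 17 of iron and oxidative stress had one. How often listed genes were nearest to regions open early only or in MAC only was not counted, so the 8.20% cannot be called particular to the members. No listed gene had more than 2 members, so the counts by list describe single regions. Away from promoters, too, some of these members were overlapped by deposited intervals of the stages left out. Both members at Bcl3 were, by HE intervals (571 and 529 bp) and HP intervals (504 and 496 bp), the member at Klf4 by an HE interval (559 bp), and the member at Smad6 by an HE interval (450 bp) with an HP interval 21 bp away.

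Members at the promoters of listed genes showed how the rule met wide HE sites. At Itga5 and Itga6, fibronectin and laminin receptor subunits, at Flna, which crosslinks actin, and at Hhex, a homeobox gene of endothelium and early blood, the promoter member was open in MES (1000 to 1200 bp), HB (1000 to 1300 bp) and MAC (200 to 500 bp), and at all 4 a deposited HE interval overlapped it. At Lrp6, a Wnt co-receptor, the nearest HE interval was 239 bp away. Mesp2, a bHLH factor of the early mesoderm, was the one such gene with no HE or HP interval near, the closest HE interval being 10732 bp away. Its member in a coding exon had a site of 1100 bp in MES, 1100 bp in HB and 300 bp in MAC.

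The 617 members over 2 kb from a TSS had 590 nearest genes. Of these genes 66.6% had a promoter site within 1 kb of a TSS at the MES stage, and the share was 69.3% for HB and 69.5% for HE, against 57.8% in HP and 57.1% in MAC. Over all genes these shares were 56.0%, 57.6%, 60.3%, 49.0% and 48.6%, and genes near regions open in MAC only had 67.8%, 70.2%, 74.2%, 59.9% and 61.3%. Near regions open early only the shares were 66.4%, 69.0%, 71.2%, 53.5% and 51.6%. Only 3 of the 590 genes had a promoter site early and in MAC but not in HE or HP (0.508%, 0.173 to 1.48), against 0.238% of all genes.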

How the data were processed

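DNase I hypersensitive sites were mapped in 5 sorted populations. Per the study's methods the authors trimmed reads with CutAdapt, aligned them to mm10 with Bowtie, kept unique reads, removed PCR copies (Picard), and DFilter called the sites; the submitters' processing notes also name HOMER. Each deposited list holds chromosome, start and end only, with all widths multiples of 100 bp, so the unit is a position; there is no score, and the study's summits were not used here. Each list was used whole (17734 to 37456 sites, 135173 in all). Interval middles were set to windows of 500 bp, chained where they shared at least 25% of their length, with Python 3.11.15, pandas 2.3.3, numpy 2.4.6 and pysam 0.24.0. TSS, exons and sequence came from RefSeq on GRCm38; 25999 TSS positions of 21000 protein-coding genes were used, and 4 mitochondrial regions were left out of position and sequence. Members on chromosome 18 were not considered for printed sequences. The scripts were tested on simulated intervals and sequences.

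The members, gene lists, motifs and comparison groups were chosen with earlier results of these data known. With 1 list per stage nothing could be tested; shares have 95% Wilson intervals. The genes named are the 8 with most members (ties by summed width of MAC sites), listed genes with at least 3 members or with a member within 2 kb of a TSS, and those nearest to printed sequences; the other listed genes are named with their list's count. The count of 1 of the 14 lists is not reported here. The 12 alternatives are given in the closing section.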

Additional observations from a re-analysis of the deposited data

How the results depend on the processing

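No paired analysis was possible because each stage had 1 list. The number of members depended on site width. Where each list was limited to sites no narrower than its median there were 282 members, of which 37 were open in MES and MAC, 110 in HB and MAC and 135 in MES, HB and MAC, with 43.6% at promoters, 46.5% CpG-rich and 18.2% with a CTCF core over 2 kb from a TSS. With every list cut to its 17734 widest entries, the size of the HP list, there were 216 (72, 56 and 88), with 25.0% at promoters, 18.5% CpG-rich and 14.2% with a core, and 2.81% of early regions without HE and HP were in MAC. That last share was 6.32% where no deposited HE or HP interval overlapped, 6.39% with none within 1 kb and 6.27% where the early and MAC windows shared at least 250 bp. The promoter share was 7.35% and 6.21% under the first and second of these, 21.8% and 14.2% with merging at 250 and 1 bp, 7.31% with deposited intervals in place of windows, 26.7% with the TSS of all transcripts and 13.0% with a reach of 1 kb. The CpG-rich share was 4.41% and 3.97% with no HE or HP interval overlapping or within 1 kb, 16.0% with merging at 250 bp, 5.07% with deposited intervals and 8.50% under stricter limits (GC 0.55, observed to expected CpG 0.65). In the central 200 bp 25.8% of members held a CTCF core. The cause of these shifts was not tested.

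The CTCF share of members was above that of early only, MAC only and also HE or HP regions under all 10 alternatives that bear on it (14.2% to 32.3%). With the widest sites only, its interval (9.65 to 20.4) overlapped those of early only (11.6%) and also HE or HP regions (13.8%). PU.1, CEBP and AP1 stayed between early only and MAC only under all 10, and TEAD did too, while GATA kept its direction against MAC only in 7 of 10. Only these directions held throughout. With sites no narrower than the list median, members and early only overlapped for PU.1 (15.7 to 28.4 against 17.8 to 20.6) and CEBP (15.7 to 28.4 against 16.8 to 19.6). They did so for TEAD as well (14.6 to 27.0 against 23.8 to 26.9). With the widest sites only, PU.1 and AP1 stayed apart from early only. Of 180 alternative values of single motifs and of other groups 36 moved beyond the interval of the reported value. Depth and site strength are unknown, and a site missing from a list may lie below its threshold.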
